A study of Mus musculus with 2 samples.

Results

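Neutrophils of the pressure-overloaded mouse heart were compared by the sample tag in their cell name, 34 cells named A952 against 76 cells named A951. These 110 cells were chosen from 878 cells by transcript levels in counts-per-million (CPM, a gene's count scaled to the total count of the cell or group of cells). A cell was taken when mitochondrially encoded genes held at most 25% of its counts, S100a8 and S100a9 together reached at least 3000 CPM, Csf3r reached at least 20, Csf1r stayed under 50 and Ly6c2 stayed under 200. In all, 159 cells met these conditions, and the other 49 were named A953 (12 cells), A965 (16 cells) or doublet (21 cells).

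The hearts came from Cdh5-CreERT2;REFLEX mice that received tamoxifen and underwent transverse aortic constriction (TAC), which narrows the aorta and overloads the left ventricle. Cdh5-CreERT2 is a Cre recombinase that tamoxifen activates, driven from the promoter of an endothelial cadherin gene, and REFLEX is the reporter behind the GFP label. Cells were sorted on CD45, a surface protein of leukocytes, and on GFP into 4 populations (CD45− GFP−, CD45− GFP+, CD45+ GFP− and CD45+ GFP+), which were pooled, and 20000 cells were loaded for 1 transcriptome library and 1 hashtag library. Both names therefore share genotype, tamoxifen, operation and library. No library from unoperated mice was analysed here, the age and number of the mice are not given in the sources used here, and no source ties A951 or A952 to a sorted population.

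Because the cells come from 1 pooled library, they are not replicates, and no test or p-value is given. Values are set side by side with exact 95% intervals (Poisson for summed counts, Clopper-Pearson for shares and for ratios), which cover counting error only and are too narrow if the counts are reads rather than molecules.

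Neutrophils are short-lived granulocytes that leave the bone marrow with their granule proteins already made and are among the first leukocytes to enter an injured heart. Their chemoattractant receptors guide them into tissue, where stimulation through NF-kappaB raises interleukin-1 and chemokine transcripts. They rely largely on glycolysis and contain few mitochondria, so RNA encoded by the mitochondrial genome is usually a small part of their transcripts.

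The genes used to choose the cells are given first, as a description. S100a8 and S100a9 encode the subunits of calprotectin, a calcium-binding protein that fills the neutrophil cytosol. S100a8 had a lowest, median and highest level per cell of 110, 29774 and 120385 CPM in A951-named cells and of 369, 33411 and 129224 CPM in A952-named cells. Summed over cells, S100a8 stood at 41584 and 40653 CPM, S100a9 at 36372 and 33086, and Csf3r, the granulocyte colony-stimulating factor receptor, at 1509 and 1815, in A951-named and A952-named cells respectively. The ranges of S100a8 overlapped almost entirely. Csf1r and Ly6c2, which mark monocytes and were capped by the rule, had summed levels of 10.1 and 9.23 CPM in A951-named cells and of 11.9 and 4.46 CPM in A952-named cells.

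Near the limits of the rule, the member with the most mitochondrial RNA had 22.4% of its counts there, and 3 cells of these names that failed only this limit began at 27.2%. The lowest S100a8 plus S100a9 level was 3000.9 CPM inside, and 17 cells that failed only here had at most 2768. The lowest Csf3r level inside was 111 CPM, and the 4 cells that failed only on Csf3r had none. Csf1r kept out the most cells, 47, with 48.5 CPM as the highest level inside and 53.1 as the lowest outside. For Ly6c2, 13 cells failed, with 183 CPM inside and 404 outside.

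Depth was similar under both names. A951-named cells had a median of 60331.5 counts (31823 to 132239) and 2709.5 genes above 0, and A952-named cells had 64879 counts (38712.5 to 166096) and 2828 genes. No cell barcode occurred more than once among the 878 cells. In the hashtag library, all 110 of 110 members carried most counts of the tag they were named for, but the level of that tag differed between the names. The A951 tag had a median of 2955 counts (39 to 16547) on A951-named cells, and the A952 tag had 159.5 (30 to 5458) on A952-named cells. The other tag of the pair stayed low, with a median of 5 A952 counts (highest 75) on A951-named cells and of 9 A951 counts (highest 49) on A952-named cells.

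Among the pathway lists with a measured gene, the largest median difference between the names was in RNA encoded by the mitochondrial genome. The share of a cell's counts in these genes had a lowest, median and highest value of 0.18%, 4.43% and 22.4% in A951-named neutrophils and of 0.16%, 1.12% and 5.57% in A952-named neutrophils. The low ends were alike, and the upper quartile of A952-named cells (1.79%) lay close to the lower quartile of A951-named cells (1.62%). More than 5% mitochondrial counts were found in 35 of 76 A951-named cells (46.1%, 34.5 to 57.9) and in 1 of 34 A952-named cells (2.94%, 0.074 to 15.3). Neutrophils named A953 and A965 had medians of 0.41% and 0.54%, but their names often differed from the highest tag. A951 was the highest tag in 6 of 12 cells named A953 and in 12 of 16 named A965. Over all cells of these names the A951 tag was low, with medians of 33.5 and 27.5 counts, beside 2955 on A951-named neutrophils. The mitochondrial shares under A953 and A965 are given only as values of cells so named and do not stand for other tags. Since the rule caps this share at 25%, the values describe cells under the cap. In another assignment, the 159 neutrophils, those named doublet included, were called by their highest tag. A call needed at least 10 counts of that tag and at least 60% of the cell's tag counts. The median was then 3.14% in 95 cells with A951 highest and 1.42% in 54 cells with A952 highest. The difference was 1.72 percentage points in place of 3.31. Cells named A953 or A965 with few A951 counts fell under A951 here. This assignment, with these limits, is meant wherever neutrophils are assigned by their highest tag below.

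**Figure D1:**
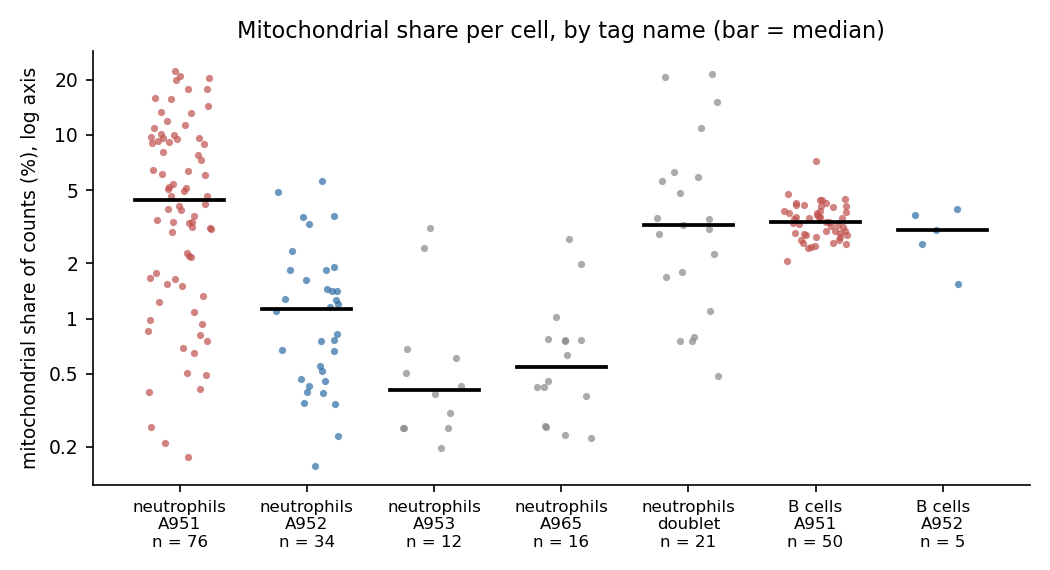
Share of each cell's counts in mitochondrially encoded genes (percent, log axis), with one point per cell for neutrophils and B cells under each name and a bar at the median. A951-named neutrophils reach 22.4% with a median of 4.43%, A952-named neutrophils stay at or below 5.57% with a median of 1.12%, and B cells named A951 and A952 have medians of 3.37% and 3.02%.

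B cells of the same library gave a comparison within each name. They were taken as cells with at least 3 B cell markers at 50 CPM. B cells named A951 had a median mitochondrial share of 3.37% (2.06 to 7.21, 50 cells), and those named A952 had 3.02% (1.55 to 3.95), in only 5 cells. The difference of medians was thus 3.31 percentage points in neutrophils and 0.35 points in B cells, with ranges that overlapped in both. The B cells named A952 included a cell with 23 A951 and 19 A952 tag counts and another with 53 and 49. Their name thus did not always match the highest tag. With 5 cells under A952 the B cell values are a weak comparison, and the difference between the cell types was not tested.

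All 13 mitochondrially encoded genes were higher in A951-named neutrophils past a ratio of 2, the ratio of summed CPM (1 CPM added to each) used throughout to call a gene. Their log2 ratios of A952-named to A951-named cells ran from -3.86 (mt-Nd6, 9 counts in A952-named cells) to -1.46 (mt-Nd5), with a median of -2.07. Among all 2272 genes measured (at least 50 CPM under either name and above 0 in at least 25% of its cells), 151 were called higher in A951-named cells (6.65%) and 238 higher in A952-named cells (10.5%). The median log2 ratio over all of them was 0.14. Of the mitochondrially encoded genes, mt-Nd4l and mt-Nd6 stood under 50 CPM in A952-named cells and passed these limits only through A951.

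mt-Cytb, which encodes a core subunit of complex III, had a lowest, median and highest level of 211, 10080 and 49706 CPM per cell in A951-named neutrophils and of 251, 1987 and 9674 in A952-named neutrophils. Its sums were 13197 and 2447 CPM, a ratio of 5.39 (5.25 to 5.54). mt-Nd1, a complex I subunit, stood at 13106 and 2525 CPM, a ratio of 5.19 (5.05 to 5.33), with cell medians of 8880 and 1244. The low ends of both genes overlapped, while the upper quartile of A951-named cells (21359 CPM for mt-Cytb and 20936 for mt-Nd1) lay above the highest A952-named cell (9674 and 10622). mt-Nd4, also of complex I, stood at 8497 and 2115 CPM, and mt-Co1, the catalytic subunit of complex IV, at 7079 and 1927. No single cell carried these sums: in A951-named cells the top cell held 5.06% of the counts of mt-Cytb and 4.66% of those of mt-Nd4.

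Gene models that copy part of the mitochondrial genome moved with it. Gm10925 had 2853 and 657 CPM beside 2939 and 655 for mt-Atp6, Gm28661 had 2373 and 566 beside 2398 and 570 for mt-Co2, and Gm28437 had 2790 and 745 beside 2796 and 752 for mt-Co3. Reads of such near-identical pairs may have been split between them, so these models are uncertain as separate genes.

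**Figure D2:**
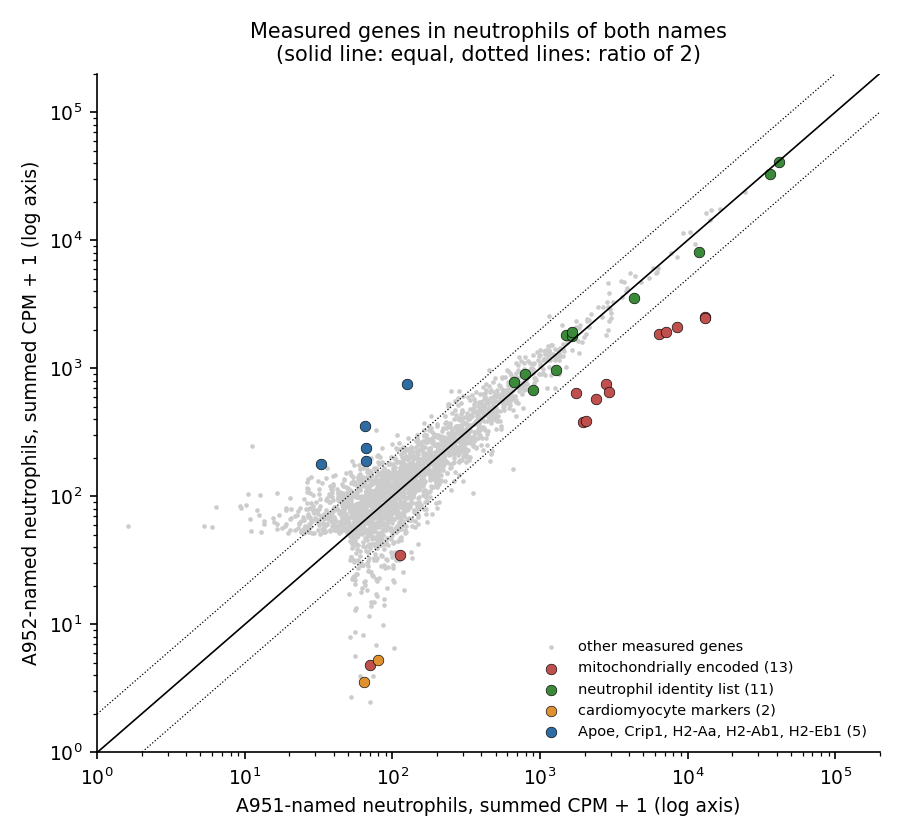
Summed level (CPM with 1 added, both axes log) of each of the 2272 measured genes in A951-named (horizontal) and A952-named (vertical) neutrophils, with a solid line at equal levels and dotted lines at a ratio of 2. The 13 mitochondrially encoded genes and 2 cardiomyocyte markers lie below the lower dotted line, the 11 neutrophil identity genes lie between the lines, and Apoe, Crip1, H2-Aa, H2-Ab1 and H2-Eb1 lie above the upper one. The 11 include S100a8, S100a9 and Csf3r, by which the cells of both names were chosen.

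Nuclear genes for the respiratory chain did not follow as a list. Of the 16 measured among 26 fixed, 2 were called higher in A951-named cells and 0 in A952-named cells, with a median log2 ratio of -0.10 and sums of 4286 and 3957 CPM. The 2 genes were Sdhb, a subunit of succinate dehydrogenase (172 and 62.0 CPM), and Cox5b, a nuclear-encoded subunit of complex IV. Sdhb was above 0 in 23.5% of A952-named cells and so passed the limits for measured genes only through A951. Cox5b had cell medians of 291 and 32.9 CPM, highest values of 2486 and 1175, and sums of 461 and 211 CPM, a ratio of 2.18 (1.98 to 2.41) in favour of A951.

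Among the 41 A951-named and 33 A952-named cells with at most 5% mitochondrial counts, the mitochondrial list stood at 20736 and 13036 CPM, in place of 62353 and 14279 over all members. Its median log2 ratio was then -0.57 (-0.87 to -0.34), and 0 of 13 genes passed a ratio of 2. The cut was made on the compared share itself. It left out 35 of 76 A951-named but only 1 of 34 A952-named cells, so a narrower difference was built in. The direction was the same for each gene in this subset. Assigned by the highest tag in all neutrophils, the median log2 ratio of the list was -0.80. Within each name, the mitochondrial share and the count of the cell's own tag had a Spearman correlation of 0.45 over 76 A951-named cells and of 0.40 over 34 A952-named cells. These cells share 1 library, and the part of the tag level in the mitochondrial difference was not tested. The mitochondrial share had correlations of 0.03 and -0.04 with counts per cell.

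**Figure D3:**
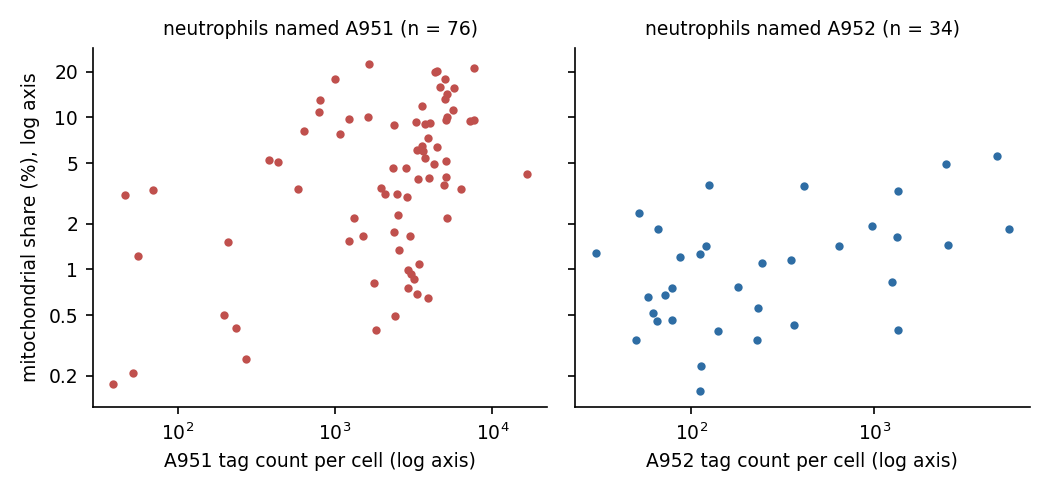
Mitochondrial share of counts (percent) against the count of the tag in the cell's name, both on log axes, for each of the 76 A951-named (left) and 34 A952-named (right) neutrophils. Cells with few tag counts tend to lie lower in both panels (Spearman correlations of 0.45 and 0.40), and A952-named cells have fewer tag counts (median 159.5 against 2955).

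RNA of cardiomyocytes was also higher under A951. The 13 fixed cardiomyocyte markers summed to 327 CPM (311 to 343) in A951-named and 90.5 CPM (78.8 to 104) in A952-named neutrophils, beside 490 in those named doublet. Per cell, the list had a median of 74.2 CPM (0 to 2249) under A951 and of 25.8 (0 to 686) under A952, so the ranges overlapped. Tnnt2, cardiac troponin T, and Myl3, a ventricular myosin light chain, were the only 2 of the 13 to pass the filter on low levels, which they did through A951, so their call carries no weight for the list. Tnnt2 stood at 78.8 and 4.25 CPM, a ratio of 18.6 (9.98 to 39.0), and was above 0 in 29 of 76 and 8 of 34 cells. Myl3 stood at 62.8 and 2.55 CPM, a ratio of 24.6 (11.2 to 67.7), from only 6 counts under A952. For background, Tnnt2 was above 0 in 19.9% of B cells, whose median depth was 67868 counts, so the share of 8 in 34 is near that level. The other markers were uneven. Tnni3 stood at 43.5 and 1.27 CPM, Actc1 at 18.1 and 3.18, Nppa at 14.2 and 0, and Ttn had a ratio of 3.81. Under A951, 1 cell held 49.1% of the counts of Tnni3, 36.4% of Actc1, 60.9% of Nppa and 82.5% of Ttn. Mb, myoglobin, stood at 46.6 and 38.6 CPM, a ratio of 1.21 (0.94 to 1.55), and Myl2 had a ratio of 1.73. Under A952, 1 cell held 49.5% of the Mb counts and 82.7% of the Myl2 counts. Tnnc1 and Ckm had ratios of 2.54 and 2.32 with intervals that included 1. Myh6, Pln and Ryr2 stood between 2.63 and 5.95 CPM under both names, slightly higher under A952 with intervals of the ratio that included 1.

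At least 2 cardiomyocyte markers at 50 CPM were found in 16 of 76 A951-named cells and 0 of 34 A952-named cells. The 16 cells had a median mitochondrial share of 3.94%, and the other 60 A951-named cells had 4.64%. In the subset with at most 5% mitochondrial counts, the cardiomyocyte list stood at 334 and 72.7 CPM. The correlation of the list with the mitochondrial share was 0.22 over 76 cells and 0.23 over 34 cells. Without the 27 A951-named and 7 A952-named cells that held at least 2 markers of any 1 other cell type, the median log2 ratio of the mitochondrial list was -2.14.

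Markers of other cells were read in the same way. Fibroblast markers summed to 104 and 6.79 CPM, with at least 2 such markers in 4 A951-named and 0 A952-named cells, and endothelial markers to 30.0 and 14.7 CPM. B cell markers stood at 147 and 130 CPM and T cell markers at 20.4 and 7.43. In A951-named cells, 1 cell held 41.1% of the fibroblast, 46.6% of the endothelial and 49.4% of the T cell counts, and without each name's top cell these lists stood at 62.7 and 5.73, 16.3 and 12.4, and 10.4 and 6.62 CPM. Macrophage markers were higher under A952, at 311 and 794 CPM, as were monocyte markers at 180 and 360, but without 1 A952-named cell, described next, they stood at 182 and 173 CPM under A952. Platelet markers, at 6.43 and 572 CPM, came to 99.1% from 1 A952-named cell. The neutrophil markers that the rule did not use (Cxcr2, Retnlg, Mmp9, Ly6g and Hdc) summed to 15092 and 11356 CPM. Their cell medians went the other way, at 6080 and 7196 CPM, and 1 A951-named cell held 15.2% of the A951 counts.

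**Figure D4:**
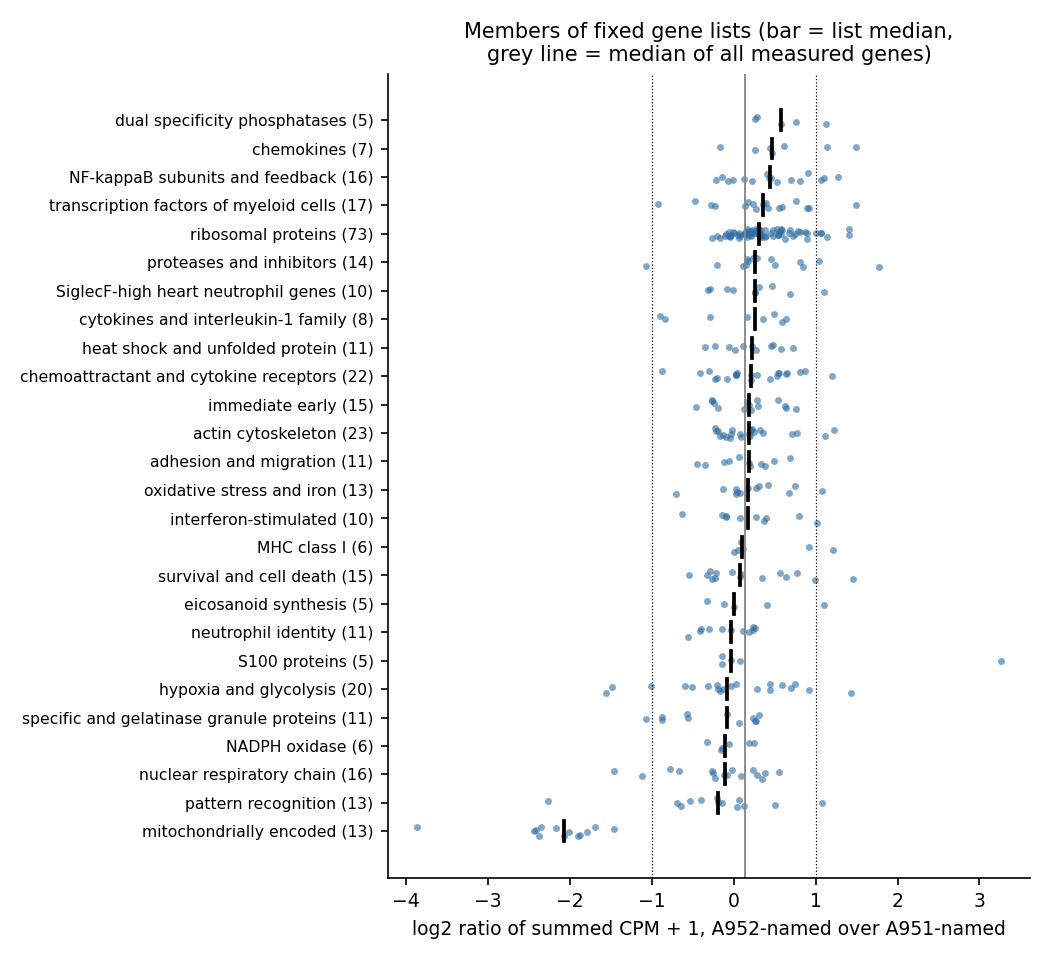
Log2 ratio of A952-named to A951-named neutrophils for the measured genes of each fixed list (horizontal axis), with one point per gene, a bar at the list's median, a grey line at the median of all measured genes (0.14) and dotted lines at a ratio of 2. The mitochondrially encoded list stands apart at a median of -2.07, while the medians of the other pathway lists lie between -0.19 and 0.58. The neutrophil identity and S100 protein lists are drawn with the genes used to choose the cells.

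One A952-named cell bore most of a difference in antigen-presentation and lipid genes. The cell had 166096 counts, 7.05% of all counts of A952-named members, and 6615 genes, more than any of the other 33. It met the rule with 4299 CPM of S100a8 plus S100a9, 138 of Csf3r and 48.2 of Csf1r, close to the cap. It also held C1qa, C1qb and C1qc, subunits of complement C1q made by macrophages, at 1505, 3245 and 2529 CPM, and carried 78.7% of the macrophage-marker counts of A952-named cells. Its tag counts were 974 for A952 and 6 for A951.

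Apoe, a lipid carrier, was at 124 and 751 CPM, with 82.1% of the A952 counts in that cell. Its log2 ratio was 2.59 with the cell and 0.22 without it. H2-Aa and H2-Eb1, chains of the class II molecules that present peptides to helper T cells, had log2 ratios of 2.46 and 1.87 with the cell and of 0.28 and -0.47 without it. H2-Ab1, another class II chain, stood at 65.4 CPM under A951 and at 187 under A952, which came to 26.5 without the cell. Crip1, a small LIM-domain protein, went from 2.44 to -0.52. These genes were present at low levels in most cells under both names: Apoe had cell medians of 44.7 and 28.8 CPM and H2-Aa of 27.4 and 20.4. In T cells (median 86101 counts), Apoe was above 0 in 93.3% of cells at 33.6 CPM in sum and H2-Aa in 76.2% at 16.5 CPM, so the shares of neutrophils with these genes, 92.1% and 82.4% for Apoe and 81.6% and 79.4% for H2-Aa, are near background.

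Ribosomal protein genes showed the same dependence. Of 73 measured, 6 were called higher in A952-named cells and 0 in A951-named cells, with a median log2 ratio of 0.31 and sums of 40164 and 48145 CPM. That 1 cell had 204910 CPM in the list. Without it the list stood at 36249 CPM under A952, 0 of 72 measured genes passed and the median was -0.16. Over all genes, 217 were called higher in A952-named cells without the cell, 186 of them shared with the 238, and 165 higher in A951-named cells, 140 of them shared with the 151.

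Other single cells carried part of the calls as well. More than 25% of a gene's counts lay in 1 cell for 155 of the 238 genes higher in A952-named cells and for 18 of the 151 higher in A951-named cells. The share of all measured genes with over 25% of their counts in 1 cell is not given here. Leaving out, for each gene and name, the cell with most counts of it gave 142 genes higher in A952-named and 207 higher in A951-named cells. Among the 2011 genes then measured, the median log2 ratio was -0.02 in place of 0.14. The names are unlike in this respect. On average, 1 of 34 cells weighs more in a sum than 1 of 76, so leaving out a top cell takes more from A952. S100a4, a calcium-binding protein of motile cells, had 92.9% of its A952 counts in 1 cell and a log2 ratio of 3.26 with that cell and 0.11 without each name's top cell. Stfa1, a cysteine protease inhibitor, had 175 and 975 CPM, but was above 0 in 9 of 76 and 4 of 34 cells, with 75.2% of the A952 counts in 1 cell.

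Of the 238 genes higher in A952-named neutrophils, 45 were above 0 in at least 50% of A952-named cells, and 19 of these also had at most 25% of their counts in 1 cell. The share of all measured genes that met these limits is not given here, so these counts are a description only. Dusp5, a nuclear phosphatase that inactivates the ERK kinases, had a lowest, median and highest level of 0, 29.1 and 1728 CPM in A951-named cells and of 0, 330 and 2812 in A952-named cells. It was above 0 in 43 of 76 and 28 of 34 cells, and its sums of 241 and 526 CPM gave a ratio of 2.18 (2.01 to 2.37). The distributions overlapped, with cells at 0 under both names, and Dusp5 was above 0 in 50.0% of B cells at like depth. Assigned by the highest tag in all neutrophils, Dusp5 had a log2 ratio of 0.70 in place of 1.12.

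Pde7b, a cyclic AMP phosphodiesterase, had the largest log2 ratio (2.28) among leading genes whose difference did not rest on the macrophage-marker cell. Leading genes were those with at least 100 CPM, above 0 in at least 50% of the cells of the higher name, outside the mitochondrial, ribosomal and model genes. Their share of cells above 0 under the higher name was thus at least 50% by choice. Pde7b stood at 25.4 and 128 CPM, a ratio of 5.01 (4.05 to 6.23), and was above 0 in 24 of 76 and 17 of 34 cells. It passed the filter on low levels only through A952, so the filter favoured a call in this direction. Cell medians were low, at 0 and 4.52 CPM, and the highest cells had 829 and 1166, so the sums came from a minority of cells under each name. Polr1d, a subunit of RNA polymerases I and III, stood at 63.9 and 197 CPM, and Psmb2, a proteasome subunit, at 50.9 and 153. Psmb2 was above 0 in 19.7% of A951-named cells, so it too passed the filter only through A952.

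Irf1, a transcription factor of the interferon response, was at 107 and 302 CPM, a ratio of 2.82 (2.52 to 3.17). It was above 0 in 29 of 76 and 17 of 34 cells, with highest cells of 1396 and 3771 CPM. The top A952-named cell held 31.5% of its counts, and without each name's top cell the log2 ratio was 1.11 in place of 1.49. Ago2, an argonaute protein of RNA silencing (98.2 and 257 CPM), Rnf19b, a ubiquitin ligase (110 and 260), Asah1, the lysosomal acid ceramidase (41.7 and 106), and Vim, the intermediate filament vimentin (282 and 662), were also called higher. Asah1 passed the filter on low levels only through A952. Assigned by the highest tag in all neutrophils, Irf1 had a log2 ratio of 0.74, and Pde7b had 2.22.

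In the other direction, Siglece and Hdlbp led the genes chosen in the same way, with ratios that differed by less than their counting intervals. Siglece encodes a sialic acid-binding receptor that inhibits myeloid cell activation. It had a lowest, median and highest level of 0, 224 and 2056 CPM in A951-named neutrophils and of 0, 0 and 1081 in A952-named neutrophils. It was above 0 in 52 of 76 and 10 of 34 cells, against 6.63% of B cells. The sums were 352 and 105 CPM, a ratio of 3.35 (2.93 to 3.85). Its log2 ratio of -1.74 was -2.01 among cells with at most 5% mitochondrial counts, -1.28 without cells holding markers of another cell type, and -0.80 when all neutrophils were assigned by their highest tag.

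Hdlbp, an RNA-binding protein of the KH family, was at 104 and 30.8 CPM, a ratio of 3.38 (2.64 to 4.39), with 25.2% of the A951 counts in 1 cell. It passed the filter on low levels only through A951, so the filter favoured a call in this direction. Sgms2, a sphingomyelin synthase, stood at 142 and 57.0, and Cass4, a Cas-family adhesion adaptor, at 300 and 131. Preb, a factor of vesicle export from the endoplasmic reticulum, stood at 248 and 110, although its cell median was lower under A951 (3.78 CPM) than under A952 (39.9 CPM). Fgd3, a guanine nucleotide exchange factor, stood at 196 and 87.1 and was above 0 in 43 of 76 and 13 of 34 cells. Of the 151 genes higher in A951-named cells, 34 were above 0 in at least 50% of those cells, and 33 of these also had at most 25% of their counts in 1 cell. Here too the share over all measured genes is not given. The 151 include the 13 mitochondrially encoded genes, of which mt-Nd6 was above 0 in only 34.2% of A951-named cells.

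**Figure D5:**
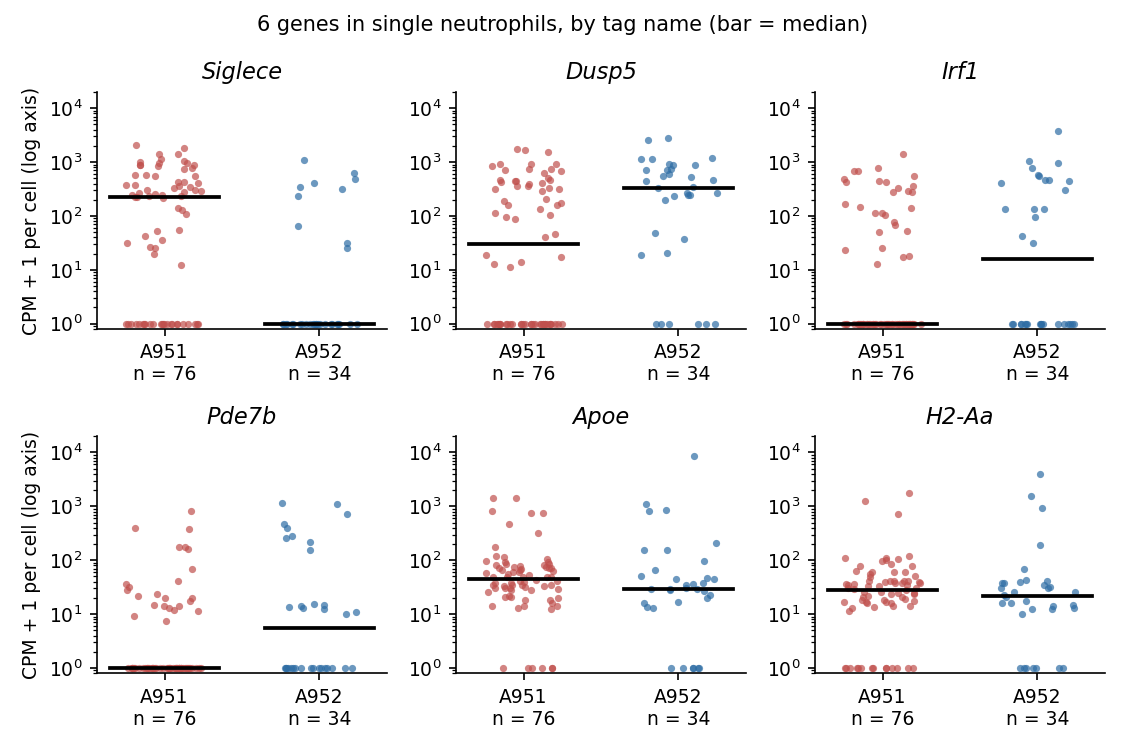
Level per cell (CPM with 1 added, log axis) of 6 genes in the 76 A951-named and 34 A952-named neutrophils, with one point per cell and a bar at the median. Siglece has a median of 224 CPM under A951 and 0 under A952 and Dusp5 has 29.1 and 330, while Apoe and H2-Aa overlap apart from a few high cells, the highest being the A952-named cell at 8742 and 4004 CPM.

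Gene lists are read against the shares called over all measured genes, 10.5% higher in A952-named and 6.65% higher in A951-named cells. Of the 8 measured genes of neutrophil identity that the rule did not use, 0 were called in either direction, with a median log2 ratio of -0.09. Retnlg, a resistin-like peptide, was at 11842 and 8043 CPM, with cell medians of 3301 and 3452 and 18.7% of the A951 counts in 1 cell. Of 11 genes of the specific and gelatinase granules, 1 was called higher in A951-named cells, the collagenase Mmp8 (473 and 225 CPM, 32.0% and 37.1% of the counts in 1 cell), and the median was -0.08. Azurophil granule genes, which are transcribed in marrow precursors, reached 6.98 CPM in sum under A951 and came to 0.42 CPM under A952, where 3 of 4 genes were at 0.

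Cytokine genes had 0 of 8 called in either direction and a median log2 ratio of 0.26. Il1b, the secreted interleukin-1 beta, had a lowest, median and highest level of 499, 9215 and 29811 CPM in A951-named cells and of 1282, 9997 and 42740 in A952-named cells. The ranges overlapped almost entirely, and the sums were 10344 and 11615 CPM. Of 7 chemokines measured, 2 were called higher in A952-named cells, with a median of 0.46. Cxcl2, a ligand of the receptor CXCR2, was not among them, at 14315 and 17120 CPM and cell medians of 10402 and 13111. The 2 called were Cxcl3 (238 and 524 CPM) and Ccl2 (70.4 and 199 CPM). For Cxcl3, 1 cell held 48.5% of the A952 counts, and the log2 ratio was 0.74 without each name's top cell. For Ccl2, 1 cell under each name held 75.2% of the A951 and 51.0% of the A952 counts. Without these cells the log2 ratio of Ccl2 was 2.43 in place of 1.49. Ccl2 was above 0 in 19.7% of A951-named cells and passed the filter only through A952, so its call carries no weight for the list. Ccl6 stood at 3522 and 4812 CPM and Ccl3 at 1813 and 1620.

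The NF-kappaB list had 3 of 16 measured genes called higher in A952-named cells, where 10.5% of all genes were, and 0 in A951-named cells. Its median log2 ratio was 0.45, beside 0.14 over all genes, and it summed to 5480 and 7822 CPM with cell medians of 3334 and 6090. The 3 genes were Relb, a subunit of the non-canonical pathway (57.5 and 141 CPM), Tnip1, an inhibitor (48.2 and 102), and Cyld, a deubiquitinase that restrains the pathway (70.5 and 153). Without each name's top cell their log2 ratios were 1.16, 1.56 and 1.11. Tnip1 was above 0 in 23.7% of A951-named cells and passed the filter on low levels only through A952. Its call therefore carries no weight for the list. Nfkbia, the inhibitor that NF-kappaB induces, had a lowest, median and highest level of 0, 1035 and 18794 CPM under A951 and of 0, 3253 and 25732 under A952. Its sums of 2876 and 4666 CPM gave a ratio of 1.62 (1.58 to 1.66), short of the ratio of 2.

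Among dual specificity phosphatases, 1 of 5 was called higher in A952-named cells (Dusp5), and the median was 0.58. Myeloid transcription factors had 1 of 17 called (Irf1) and a median of 0.36. Pattern recognition genes had 1 called in each direction of 13: Nlrp3, the inflammasome sensor, at 277 and 587 CPM, and the receptor gene Tlr6, at 71.0 and 14.0 CPM. For Tlr6, 93.8% of the A952 counts came from 1 cell. Without each name's top cell the log2 ratios were 1.04 for Nlrp3 and -5.05 for Tlr6. Tlr6 had only 33.0 counts under A952, in 8.82% of cells, and passed the filter on low levels only through A951. Its call therefore carries no weight for the list. Of 22 genes for chemoattractant and cytokine receptors, 1 was called, Il4ra, and its log2 ratio of 1.19 was 0.99 without each name's top cell. C5ar1, the receptor for complement C5a, stood at 606 and 943 CPM and was not called. Survival genes had 1 of 15 called (Bcl2l1), interferon-stimulated genes 1 of 10 (Oasl2) and MHC class I genes 1 of 6 (H2-Q7), each higher in A952-named cells against a background of 10.5%. Without each name's top cell these calls ended, with log2 ratios of 0.85 for Bcl2l1, 0.64 for Oasl2 and 0.08 for H2-Q7. Il4ra, Bcl2l1 and H2-Q7 had passed the filter on low levels only through A952, so their calls carry no weight for their lists.

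Hypoxia and glycolysis genes had 1 of 20 called higher in A952-named cells (Ero1a) and 3 in A951-named cells, namely Hif1a, the oxygen-regulated transcription factor (98.5 and 34.6 CPM), Tpi1, a glycolytic enzyme (104 and 51.3), and Bnip3, a mitochondrial receptor for mitophagy (103 and 34.3). Hif1a and Bnip3 passed the filter on low levels only through A951, and Ero1a only through A952, so these calls carry no weight for the list. The list as a whole summed to 5755 and 5756 CPM. The NADPH oxidase, which makes superoxide, had 0 of 6 genes called and sums of 4879 and 4857 CPM. Adhesion genes (0 of 11), immediate early genes (0 of 15) and heat shock genes (0 of 11) had no gene past a ratio of 2 in either direction. Eicosanoid genes had 1 of 5 called higher in A952-named cells, Ptgs2, the inducible cyclooxygenase, at 236 and 506 CPM. Its log2 ratio of 1.10 was 0.91 without each name's top cell and -0.86 in cells with Icam1 at 200 CPM or more. Oxidative stress and iron genes had 1 of 13 called (Txnrd1, 0.62 without each name's top cell). Among proteases and inhibitors, 2 of 14 were called higher in A952-named cells (Adam17 and Timp2) and 1 in A951-named cells (Mmp8). Without each name's top cell the log2 ratios of these genes were 1.91, 1.19 and -1.14. Adam17, at 22.6 CPM under A951, passed the filter on low levels only through A952, so its call carries no weight for the list. Actin cytoskeleton genes had 2 of 23 called higher in A952-named cells, Vim and Tmsb10. Tmsb10 had 81.3% of its A952 counts in 1 cell, and the log2 ratio of Vim was 0.98 without each name's top cell.

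A list of genes linked to SiglecF-high heart neutrophils had 1 of 10 called (Ptgs2, with the limits just given) and a median of 0.26. Icam1, an adhesion receptor, was used to look at the spread among the members. Icam1 at 200 CPM or more was found in 17 of 76 A951-named cells (22.4%, 13.6 to 33.4) and 10 of 34 A952-named cells (29.4%, 15.1 to 47.5), and the intervals overlapped. The limit marks a range, not a type: 4 and 5 cells lay between 100 and 400 CPM, and 44 and 17 cells had none. The summed levels of Icam1, 357 and 576 CPM, rested in part on 1 A952-named cell with 44.5% of the counts, and without each name's top cell the log2 ratio was 0.14 in place of 0.69.

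Of the 2272 genes, 275 (12.1%) were higher and 441 (19.4%) lower past a ratio of 2 in Icam1-high than in Icam1-low A951-named cells, and 321 (14.1%) and 528 (23.2%) in A952-named cells. Nfkbia stood at 6945 CPM in Icam1-high and 1770 in Icam1-low A951-named cells, and at 10074 and 2602 in A952-named cells. Dusp2, another phosphatase of the same family, had log2 ratios of high to low cells of 2.26 and 2.18 under A951 and A952, and Il1rn, the interleukin-1 receptor antagonist, had 2.21 and 2.21. Among the 10 Icam1-high A952-named cells, 1 cell held 38.5% of all A952 counts of Il1rn, and 1 other cell 26.9% of those of Dusp2. The ratios of both genes under A952 thus rest in part on single cells. Retnlg was lower in Icam1-high cells, with log2 ratios of -3.08 and -0.82, as was the chemokine Ccl6 with -1.42 and -0.53. The cytokine gene Osm had -0.32 and -0.42, and Ptgs2 turned between the names, at 534 CPM in Icam1-high and 155 in Icam1-low A951-named cells and at 294 and 587 in A952-named cells. mt-Cytb differed little with Icam1, at -0.22 and 0.32, and in Icam1-high cells alone it stood at 11682 CPM under A951 and 2855 under A952. These contrasts were not tested, and cells of a name were split by a gene of the same transcriptome. Within Icam1-high cells Siglece had 372 and 40.0 CPM, and within Icam1-low cells 346 and 130. Dusp5 depended on the range, with 278 and 280 CPM in Icam1-high cells and 231 and 620 in Icam1-low cells.

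The reporter transcript and the sorted antigen were read last. mCherry, the only reporter transcript found by name, had a lowest, median and highest level of 0, 396 and 2945 CPM in A951-named cells and of 0, 596 and 2438 in A952-named cells. It was above 0 in 72 of 76 and 31 of 34 cells, and in 59.6% of B cells, and its sums of 536 and 721 CPM gave a ratio of 1.34 (1.26 to 1.43). Ptprc, which encodes CD45, stood at 1001 and 1268 CPM with cell medians of 709 and 1223. Neither gene passed a ratio of 2, and the ranges overlapped for both.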

How the data were processed

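One pooled library of sorted heart cells was measured as transcriptome and hashtag. The tools named in the submitters' processing notes, without their roles, are STARsolo 2.7.10b, STAR, cutadapt 4.1 and R 4.3.1, with the mouse build GRCm39. The authors deposited estimated counts per gene (31192) and cell (878), not normalized, of which 69.8% of values above 0 are whole, and whole counts per tag in the hashtag file. The sources used here do not say whether molecules or reads were counted. Cell names carry the authors' tag calls, which were used as given. No doublet caller was run, and cells named doublet were left out of the comparison.

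Counts were summed over the cells of each name and scaled to CPM. Genes with at least 50 CPM under either name, above 0 in at least 25% of its cells, were measured, and a ratio of 2 after adding 1 CPM was called. Named genes were those of the rule, the 15 leading genes per direction (at least 100 CPM and above 0 in at least 50% of cells of the higher name, without mitochondrial, ribosomal and model genes), the 3 most abundant members of each of 27 pathway lists, mCherry and Ptprc. List members past the ratio and members of the marker lists (16) were named besides, after their values were seen. The members and lists were chosen with earlier results of these data known. With 1 library the intervals at 95% cover counting error only. Calculations used Python 3.11.15, numpy 2.4.6, pandas 2.3.3 and scipy 1.17.1. The calculation of intervals was tested on simulated data drawn for this comparison, where 95.0% of intervals for 2000 genes changed by a ratio of 2 held the true value. The simulated sums were independent Poisson counts without spread between cells, as the intervals assume. The simulation therefore checks the calculation only, not how well the intervals suit these cells. The alternatives were other cell, gene and count filters, scalings, thinning to 25000 counts and tag assignments.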

Additional observations from a re-analysis of the deposited data

Results flagged for a closer look

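The A952 tag of neutrophils named doublet was outside the comparison and stood above its level in singly named neutrophils. In these 21 cells the A952 tag had a median of 3894 counts (8 to 12238), beside 159.5 in the 34 neutrophils named A952 and 5 in the 76 named A951. The A952 tag was the highest tag in 16 of the 21, A951 in 2 and A965 in 3, and the median A951 count was 28. Their median mitochondrial share was 3.24%, beside 4.43% under A951 and 1.12% under A952.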

How the results depend on the processing

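No paired analysis was possible because the pool gave 1 transcriptome sample and the labels carry no shared replicate numbers. Against 238 genes higher in A952-named and 151 higher in A951-named cells, the counts were 836 and 601 at 20 CPM and 10% of cells, 2372 and 3040 with no filter beyond 1 count, 603 and 431 in cells with Icam1 at 200 CPM or more, and 361 higher in A952-named cells with Icam1 under 200. They were 142 and 207 without each gene's top cell, 170 and 187 after centring on the median log2 ratio of all genes (0.14), and 109 and 94 when all neutrophils were assigned by their highest tag, of which 83 and 56 were shared. The other settings gave 172 to 287 and 106 to 197. The difference in median mitochondrial share (3.31 points) was 0.57 points among cells with at most 5% mitochondrial counts, a cut on the share itself. It was 1.72 by the highest tag and 1.99 to 3.67 under the other settings tried. The difference in the Icam1 share (-7.04 points) was -10.3 to -5.81. Of 31 named genes past a ratio of 2, 5 changed sign under at least 1 setting, as did 47 of the 76 named genes that were not past it. Under the stricter neutrophil rule Crip1 had -0.67, H2-Eb1 -0.53 and H2-Ab1 -1.26. In Icam1-high cells Apoe had -1.70, Crip1 -0.42, H2-Eb1 -0.21, H2-Ab1 -0.62 and Ptgs2 -0.86. Without the gene's top cell Crip1 had -0.45 and H2-Ab1 -0.86. Without cells holding markers of another type they had -0.54 and -1.65. Without the macrophage-marker cell Crip1 had -0.52, H2-Eb1 -0.47 and H2-Ab1 -1.27. The cause was not tested beyond the cells each setting leaves out. The settings by 5% mitochondrial counts, other-type markers, the macrophage-marker cell and the highest tag were chosen after seeing the data.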
